A study of Drosophila melanogaster with 19 samples.

Results

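The chemosensory receptor genes of Drosophila melanogaster encode the odorant receptors (Or), the gustatory receptors (Gr) and the ionotropic receptors (Ir) by which the fly smells and tastes. They were taken as the protein-coding genes of the Release 6 annotation whose symbol is Or, Gr or Ir followed by digits and a letter. That gave 179 of the 13921 protein-coding genes on the main chromosomes, 59 Or, 60 Gr and 60 Ir genes. Of these, 25 lay on the X chromosome and 154 on the autosomes. The values are chromatin immunoprecipitation sequencing (ChIP-seq) peaks of MSL2 in whole adult males aged 3 days. The groups were wt males and males of the genotype M1[wt], both labelled with the strain Oregon-R, with 1 sample each. Each sample was chromatin of pooled flies, and IgG from preimmune rabbit serum was the control. The series lists such IgG samples for wt males and wt females and none for M1[wt] males. What M1[wt] changes in the fly beyond its name, and the state of the endogenous msl-1 gene in it, are not given in the labels.

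MSL2 is the male-specific subunit of the dosage compensation complex, which coats the X chromosome of males and increases transcription from it. The complex starts from entry sites rich in GA repeats and spreads to the bodies of active X-linked genes. Odorant and gustatory receptors belong to a family of insect cation channels, and ionotropic receptors descend from glutamate receptors. Each receptor gene is typically used by a small set of sensory neurons, and many receptors need a shared co-receptor, such as Orco for the Or proteins or Ir8a, Ir25a and Ir76b for the Ir proteins. In whole-fly chromatin, binding in few cells and weak binding in many cells cannot be told apart.

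The wt list held 1615 X and 2173 autosomal peaks on the main chromosomes, and the M1[wt] list held 1595 and 2340. The strongest peak of both lists lay in lncRNA:roX1, the gene of a noncoding RNA of the complex that is made in males. The read depth behind the peaks is unknown. A gene was counted as having a peak when a summit, the highest point of a peak, fell inside the gene or at most 1000 bases away. With 1 list per line and with genes that are not replicates, no test was made. Shares carry exact Clopper-Pearson 95% intervals that cover counting error only and treat genes as independent, which neighbouring receptor genes are not.

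MSL2 peaks were sparse at the receptor genes on the X chromosome. In each list 3 of the 25 X-linked receptor genes had a peak, a share of 12% (exact interval 2.55 to 31.2%). In wt males these were Or2a, Or7a and Ir8a, and in M1[wt] males Or2a, Or7a and Gr8a. Over the whole X chromosome, a peak was counted for 53.7% of protein-coding genes (wt) and 52.0% (M1[wt]). Receptor genes are short, with a median length of 1872 bases on the X against 2557 for the other genes there, so the other genes were also weighted to the lengths of the receptor genes. The weighted share was 55.2% (wt) and 52.5% (M1[wt]), a share at which 13.8 and 13.1 of 25 genes would have had a peak. Unweighted, the other X-linked genes stood at 54.2% and 52.5%.

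On the autosomes the share was lower, both for receptor genes and for genes in general. In each list 6 of 154 had a peak, or 3.90% (exact interval 1.44 to 8.29%). The share of all autosomal protein-coding genes was 22.3% (wt) and 24.1% (M1[wt]). Weighted to the lengths of the autosomal receptor genes, with a median of 1655.5 bases against 2114 for other genes, it was 18.2% and 20.7%. At those shares 28.1 and 31.9 of the 154 genes would have had a peak. The autosomal peaks were at Ir31a, Gr39b, Ir60e and Gr97a in both lists, at Or46a and Gr94a in wt males, and at Or85f and Or88a in M1[wt] males.

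**Figure D1:**
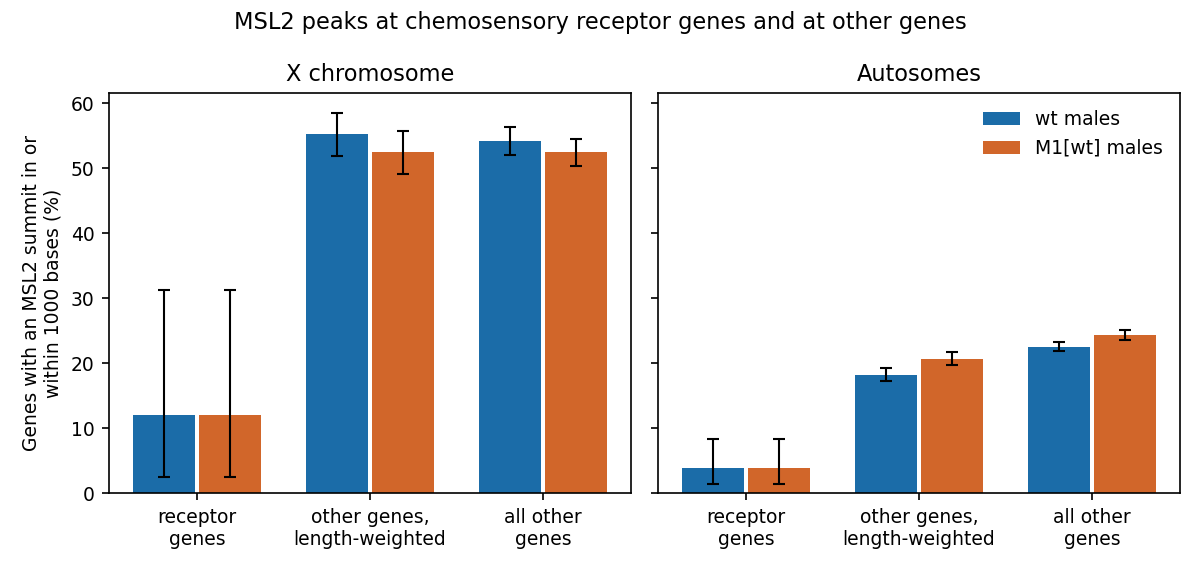
Share of genes with an MSL2 summit in the gene or within 1000 bases, in percent, for receptor genes, for other protein-coding genes weighted to the receptor genes' lengths, and for all other protein-coding genes, on the X (left) and the autosomes (right). Bars are the 2 lists, and error bars are 95% intervals (exact for counted shares, normal for the weighted ones); the X-linked receptor genes stand at 12% and the autosomal ones at 3.90% in both lists.

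Peaks were found in all 3 families. In wt males 3 Or, 3 Gr and 3 Ir genes had a peak, and in M1[wt] males 4 Or, 3 Gr and 2 Ir genes did. In all, 12 receptor genes had a peak in at least 1 list and 167 had none in either. The lists shared 6 of their 9 genes, 66.7% of each list. Of the other protein-coding genes with a peak in wt males 83.1% also had one in M1[wt] males, and 79.7% the other way.

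The receptor genes' share was the lower one at every distance examined up to 50 kb, though on the X not beyond counting error at the widest distances. Inside the gene itself, a summit lay in 2 of 25 X-linked receptor genes in wt males (8.00%) and 1 of 25 in the M1[wt] line (4.00%), against 37.5% and 32.9% of length-weighted other genes and 39.0% and 37.3% of all X-linked genes. On the autosomes no receptor gene held a summit in either list (0 of 154, exact upper bound 2.37%), against 5.39% and 5.91% of length-weighted other genes and 9.89% and 10.4% of all autosomal genes. Within 500 bases the X-linked counts were unchanged, at 8.00% and 4.00%, with 47.6% and 45.7% for all X-linked genes, and 2 (1.30%) and 3 (1.95%) autosomal receptor genes had a summit, with 19.2% and 20.9% for all autosomal genes. Within 10 kb, 11 X-linked receptor genes had a summit in wt males (44.0%) and 14 in the M1[wt] line (56.0%), against length-weighted shares of 79.8% and 79.6% and shares of all X-linked genes of 76.5% and 76.8%. The autosomal shares within 10 kb were 21.4% and 22.7%, against 50.4% and 54.2% weighted and 51.0% and 53.5% of all autosomal genes. Within 50 kb, 84.0% and 88.0% of the X-linked and 62.3% and 64.3% of the autosomal receptor genes had a summit, against 95.1%, 96.3%, 87.3% and 86.0% of the weighted other genes in the same order. All X-linked genes stood at 92.9% and 93.4% there, and all autosomal genes at 86.8% and 85.6%.

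**Figure D2:**
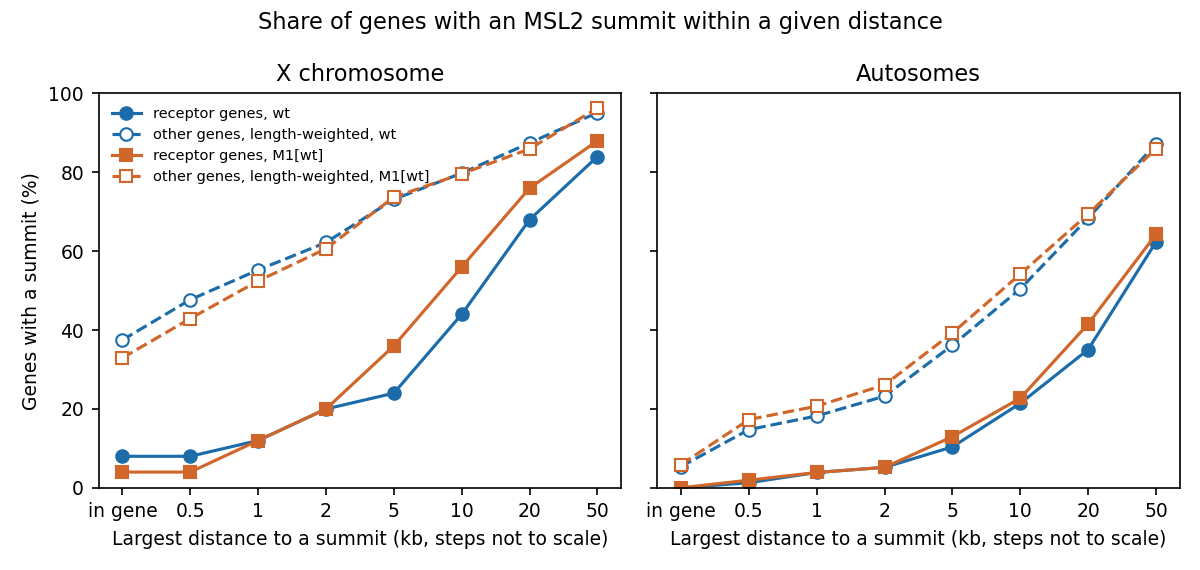
Share of genes (percent) with an MSL2 summit inside the gene or within the distance on the horizontal axis (kb, steps not to scale), for receptor genes (solid lines) and length-weighted other genes (dashed), on the X (left) and the autosomes (right) in both lists. The solid lines run below the dashed ones at each distance, from 8.00% against 37.5% inside X-linked genes to 62.3% against 87.3% within 50 kb on the autosomes (wt).

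In distance, the median X-linked receptor gene lay 12948 bases from the nearest summit in wt males (quartiles 5401 and 23077) and 8127 bases in M1[wt] males (3772 and 15985). Length-weighted other X-linked genes had medians of 579 and 836 bases. The median autosomal receptor gene lay 35626.5 bases away in wt males and 32479 in the M1[wt] line, against 9859 and 8384 for weighted other genes. The surroundings were sparse as well. An X-linked receptor gene with 10 kb on either side held 1.40 summits on average in wt males (SD 1.89 over 25 genes) and 1.52 in M1[wt] males (SD 1.58), against 3.53 and 3.11 for weighted other genes. The autosomal means were 0.305 (SD 0.670 over 154 genes) and 0.383 (SD 0.849), against 0.816 and 0.919.

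Among the X-linked odorant receptor genes, Or7a, whose receptor responds to green leaf odours, was the one member with a summit inside the gene in both lists. Its gene spans X:8164266-8165708 in dm6. The wt peak was X:8164880-8165662 with a −log10 p of 11.2, and the M1[wt] peak X:8164800-8165666 with 18.3. The summits lay 80 bases apart. The neighbour CG2278 starts or ends 125 bases from Or7a, and the Or7a summits lay 392 and 312 bases from it. In wt males CG2278 held a much stronger peak, X:8167275-8168802, with a −log10 p of 3227 at rank 15 of the list and its summit 2072 bases from Or7a. The M1[wt] list held no summit in CG2278, while the Or7a peak was present in it. A gene without a summit in a list is not shown to lack MSL2, so a loss at CG2278 was not shown.

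Or2a, an odorant receptor gene at X:2246231-2247567, lies 27 bases from crn, which encodes the splicing factor Crooked neck. In wt males a weak peak, X:2246791-2247321, had its summit in Or2a and a −log10 p of 8.40. No M1[wt] peak overlapped it. In M1[wt] males Or2a was counted through a peak in crn, X:2247817-2249958, with a −log10 p of 10.5 and a summit 564 bases from Or2a. The wt list held almost the same crn interval, X:2247787-2249928 (−log10 p of 12.9), with its summit 1752 bases from Or2a, beyond the limit. The call at Or2a came from different peaks in the 2 lists.

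The other 6 X-linked Or genes had no peak. The summit nearest to Or9a lay 1406 bases away in wt males and 1439 in the M1[wt] line, in Neb-cGP. Or10a, whose receptor responds to methyl salicylate, lay 6218 and 3772 bases from a summit, and Or13a, whose receptor responds to the mushroom odour octenol, 7939 and 7924 bases. Or1a, a larval odorant receptor gene inside CG3777, lay 61925 and 38855 bases away. Or19a, whose receptor responds to citrus terpenes, lay 14364 and 15985 bases away, and Or19b 61785 and 63406. Or19a and Or19b have the same length of 1370 bases and are known as recent duplicates, so reads from them may not be placed uniquely, and the handling of such reads is not stated in the labels.

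Of the 6 X-linked gustatory receptor genes, Gr8a, which is needed to taste the plant toxin L-canavanine, had a peak in M1[wt] males. The peak, X:9229354-9229795 with a −log10 p of 11.8, had its summit 816 bases from Gr8a and inside CG12121. CG12121 (X:9228796-9232378) overlaps the end of Gr8a on one side and lies close to Ir8a on the other. In wt males the summit in CG12121 lay at the other end of it, in X:9231840-9232247 with a −log10 p of 9.90, which is 654 bases from Ir8a and 3245 from Gr8a. The 2 summits lay 2429 bases apart, and each list counted a different receptor gene at this locus, although CG12121 held a summit in both.

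Gr5a, a receptor gene for trehalose and other sugars, came close to the limit. Its nearest wt summit lay 1129 bases away with a −log10 p of 10.7, and the nearest M1[wt] summit 4704 bases away. Gr9a lay 8814 bases from a summit in wt males and 1740 in the M1[wt] line, and Gr2a 10798 and 8396 bases. Gr10b lay 5401 and 5487 bases away. Gr10a has the same span as Or10a in the annotation, X:11413467-11417422, and so the same distances. These members count as separate genes, but their positions are not independent.

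Of the 11 X-linked ionotropic receptor genes, Ir8a, the co-receptor for acid sensing, was the one with a peak, in wt males. A second wt summit, in mxc, a gene of the histone locus body, lay 1078 bases from the other side of Ir8a. The nearest M1[wt] summit to Ir8a was the one in CG12121, 3083 bases away. The genes Ir7b to Ir7g stand within 22.0 kb, X:7864948-7886976, with the non-receptor gene dec between Ir7b and Ir7c. This stretch held no summit in either list. How often other stretches of this length hold none was not computed. The distances of these Ir genes ran from 12948 bases (Ir7g) to 32956 (Ir7b) in the wt list and from 5177 to 25185 in the M1[wt] list. Ir7c, which is needed for the avoidance of high salt, lay 23077 and 15306 bases from a summit. Ir7a lay 27154 and 27211 bases away, Ir10a 15458 and 15444, Ir11a 81994 and 81992, and Ir20a, the most distant X-linked member, 89691 and 91252.

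**Figure D3:**
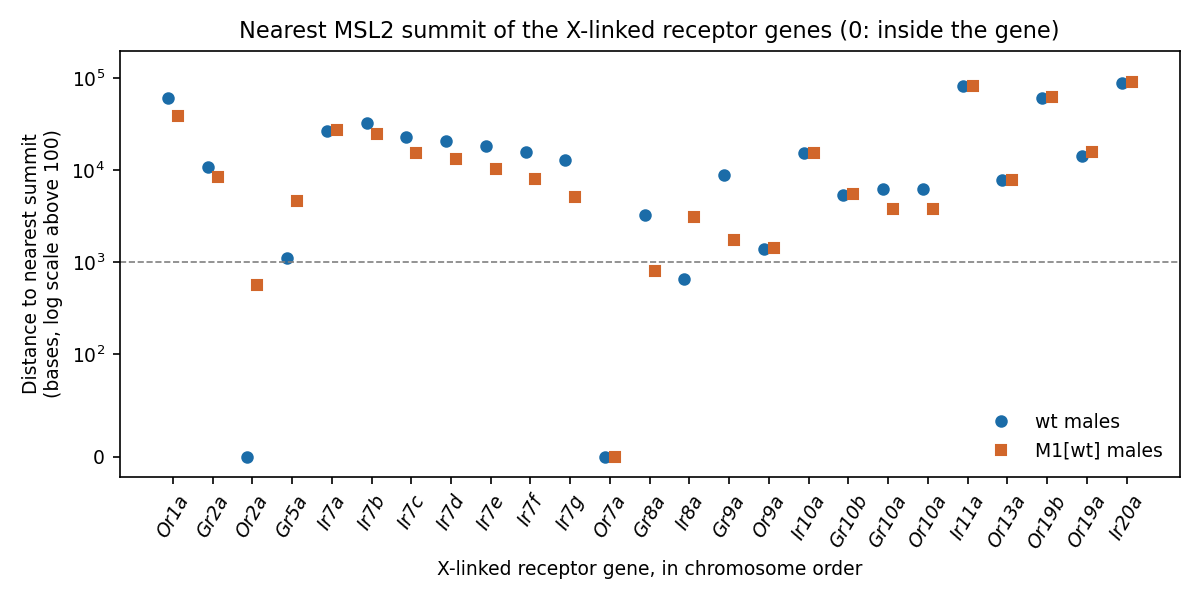
Distance in bases (log scale above 100, 0 for a summit inside the gene) from each of the 25 X-linked receptor genes, in chromosome order, to the nearest MSL2 summit of wt males (circles) and M1[wt] males (squares); the dashed line marks 1000 bases. Or7a is at 0 in both lists and Or2a in wt males, while most genes lie above 5000 bases and Ir20a lies farthest.

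The peaks at X-linked receptor genes were among the weaker peaks of the X. The strength used is the lower −log10 p of the 2 replicate calls given for each peak, and it is the authors' value. In wt males the 3 values were 8.40, 9.90 and 11.2, with 1.61 to 15.0% of X peaks weaker, against an X median of 22.2. The values of the first and second replicate call were 10.96 and 8.40 at Or2a, 11.4 and 11.2 at Or7a, and 9.90 and 9.95 at Ir8a. In M1[wt] males the 3 values were 10.5, 11.8 and 18.3, with 0.815 to 23.4% of X peaks weaker, against a median of 36.6. The upper end of both ranges is the Or7a peak.

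The autosomal peaks reached higher. Ir31a, an antennal receptor gene at 2L:10405565-10408197, had the strongest in wt males, 2L:10408099-10408438, with a −log10 p of 56.3, and 76.6% of autosomal peaks were weaker. Its M1[wt] peak, 2L:10408054-10408434, had 63.8 and was again the strongest at a receptor gene. The Gr97a peak had 36.4 (wt) and 63.5 (M1[wt]), and the Ir60e peak 16.1 and 52.5. The Gr39b peak had 20.3 and 13.8. The peaks found in 1 list were weaker than the autosomal median of that list, with 14.6 at Or46a and 7.99 at Gr94a in wt males (median 23.0), and 13.0 at Or85f and 22.1 at Or88a in M1[wt] males (median 34.6). Because −log10 p grows with depth, values of the 2 lists are given side by side and no change was computed.

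**Figure D4:**
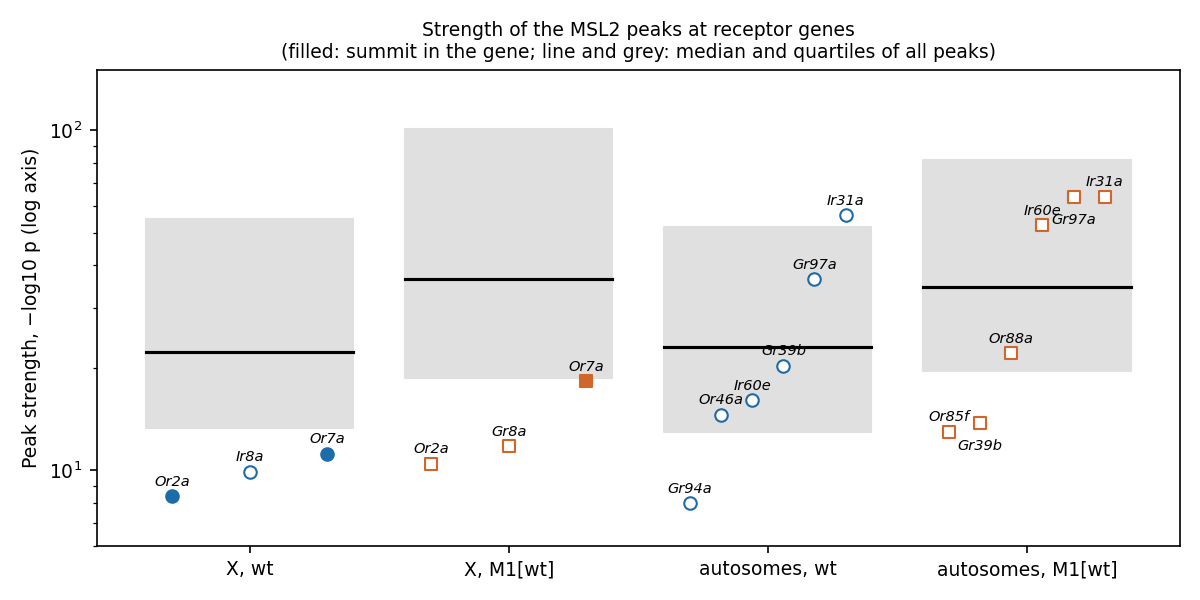
Strength (−log10 p, log axis) of the MSL2 peaks counted at receptor genes, by chromosome class and list; filled symbols have their summit inside the receptor gene, and the black line and grey band are the median and quartiles of all peaks of that class and list. On the X the symbols lie below the lower quartile in both lists, with Or7a highest at 11.2 and 18.3, and on the autosomes Ir31a is highest at 56.3 and 63.8.

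By position, most of these summits lay in another gene or nearer to one. Of the 9 peaks at receptor genes in wt males, 5 had the summit inside another gene, 2 lay between genes and nearer to another gene, and 2, at Or2a and Or7a, lay in the receptor gene alone. In M1[wt] males 4 lay in another gene, 3 between genes and nearer to another gene, 1 between genes and nearer to the receptor gene, and 1, at Or7a, in the receptor gene. Among other genes with a peak in length classes 3 to 5 of 10, which hold 21 of the 25 X-linked and 115 of the 154 autosomal receptor genes, 65.8% of the X-linked and 21.1% of the autosomal ones held a summit themselves (wt), and 59.8% and 21.8% (M1[wt]). The 0 of 6 autosomal receptor genes holding a summit in each list is to be read against 21.1% and 21.8%. On the X, 2 of 3 (wt) and 1 of 3 (M1[wt]) held one, beside 65.8% and 59.8%. The match in length is partial, because some members with a peak were longer than classes 3 to 5. In wt males these were 1 autosomal member in class 6, 1 in class 7, and Ir8a on the X in class 7. In M1[wt] males it was 1 autosomal member in class 6. How often a summit near other genes of like length lies nearer to a neighbour was not computed, so the owner counts are not shown to be particular to receptor genes.

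The Ir31a summits fell in the narrow gap between Ir31a and the genes RpS27A, which encodes a ribosomal protein fused to ubiquitin, and Ip259, which start or end at the same base. The wt summit lay 37 bases from that pair and 118 from Ir31a. The M1[wt] summit lay 75 bases from Ir31a and 80 from the pair, so that ownership turned on a shift of 43 bases between the lists. At Gr97a the wt summit lay in CG5521 and the M1[wt] summit 22 bases outside it, 546 and 423 bases from Gr97a. At Ir60e both summits lay in CG13585, 862 and 835 bases from the receptor gene, and at Gr39b both lay between genes, 943 and 993 bases from Gr39b but 578 and 528 from CG8665.

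The owners of the peaks found in 1 list are given in the same way. The Or46a summit lay in CG18011, 292 bases from Or46a, a receptor gene of the maxillary palp. The Gr94a summit lay in p53, the tumour suppressor gene that contains Gr94a, and in asRNA:CR46089, 811 bases from Gr94a. In M1[wt] males the Or85f summit lay in CG34117, 271 bases from Or85f, whose receptor responds to odours of parasitoid wasps. The nearest wt summit to Or85f, at 1054 bases, fell just beyond the limit. The Or88a summit lay 343 bases from CG12402 and 781 from Or88a, whose receptor responds to fly odours. The members nearest to the limit were Gr39b inside it, at 943 and 993 bases, and Or85f (1054 in wt males), Gr5a (1129 in wt males) and Ir68b (1170 (wt) and 1161 (M1[wt])) outside it.

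**Figure D5:**
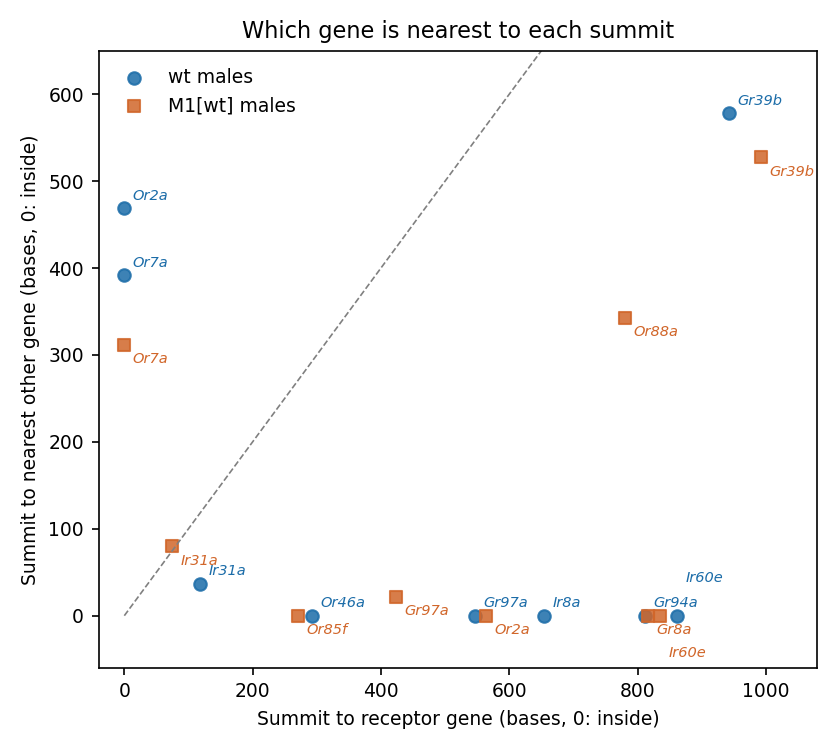
Distance in bases from each summit counted at a receptor gene to that gene (horizontal axis) and to the nearest other gene (vertical axis), with 0 for a summit inside the gene, for wt males (circles) and M1[wt] males (squares). Points below the dashed line are nearer to another gene; above it lie Or7a in both lists, Or2a in wt males and, by 5 bases, Ir31a in M1[wt] males.

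Many receptor genes lie inside a larger gene. In all, 25 were contained in 24 protein-coding genes that are not receptor genes. Overlaps between receptor genes, such as Gr10a and Or10a, were not counted. Of these host genes, 9 had a peak in wt males and 7 in the M1[wt] line, in or within 1000 bases, or 37.5% and 29.2%. Non-receptor genes of the hosts' lengths stood at 42.7% and 42.9%. A summit inside the host was found in 2 hosts in wt males, p53 and CG13252, and in 1 in M1[wt] males, CG15312, the host of Gr9a. That was 2 (wt) and 0 (M1[wt]) of 22 autosomal hosts, beside 9.89% and 10.4% of all autosomal genes. On the X it was 0 and 1 of 2 hosts, beside 39.0% and 37.3% of all X-linked genes. The share of genes of the hosts' lengths that hold a summit was not computed. None of the 25 contained receptor genes held a summit in either list, and the one with a peak was Gr94a in wt males. Of the 25, 23 were autosomal, and there 5.39% (wt) and 5.91% (M1[wt]) of length-weighted other genes held a summit. The other 2 were X-linked, with 37.5% and 32.9% for length-weighted other genes. With shares this low on the autosomes, the absence of a summit in so few genes says little about containment. Another 15 receptor genes overlapped part of 16 non-receptor protein-coding genes (Ir75d is in both counts). Of these 16, 3 had a peak in wt males and 5 in the M1[wt] line (18.8% and 31.2%, against 28.7% and 31.0% at like length). Among them futsch, a microtubule-associated protein gene that overlaps Gr2a, held 1 summit in wt males and 2 in the M1[wt] line, none of them within 10 kb of Gr2a.

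Each receptor gene was also set beside its nearest protein-coding neighbour that is not a receptor gene, a comparison added after the data had been seen. The 25 X-linked members had 19 different neighbours, of which 8 had a peak in wt males (42.1%) and 6 in the M1[wt] line (31.6%), against 3 of 25 receptor genes. The 154 autosomal members had 116 different neighbours, of which 23 (19.8%) and 20 (17.2%) had one, against 6 of 154. The neighbours were longer, with median lengths of 3583 bases (X) and 3857 (autosomes). Non-receptor genes of the neighbours' lengths stood at 54.1% and 53.9% on the X and at 27.7% and 29.0% on the autosomes, above the neighbours in each list. The neighbours lay between the receptor genes and other genes of like length. Of the autosomal receptor genes, 69 had another receptor gene within 5 kb, and none of these had a peak in either list. The 6 with a peak in each list were among the 85 without one, beside 22.3% (wt) and 24.1% (M1[wt]) of all autosomal genes. On the X 1 of 10 members with such a neighbour had a peak in each list, against 2 of the 15 others, beside 53.7% and 52.0% of all X-linked genes. Genes in such runs share a locus and are not separate observations. No share was computed for other genes that lie in clusters, and a link between clustering and peaks was not tested.

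Some autosomal members without a peak are given by their distance because of what their receptors are known for. They were picked after their values were seen, and most autosomal members lacked a peak. Ir25a lay 9950 bases from a summit in wt males and 2580 in the M1[wt] line, and Ir76b 29208 and 29260. The carbon dioxide receptor genes Gr21a and Gr63a lay 37523 and 6904 bases away in wt males and 39044 and 6677 in the M1[wt] line. Or67d, the receptor gene for the male pheromone cis-vaccenyl acetate, lay 48303 and 46995 bases away. The longest member, Ir41a, spans 104437 bases and held no summit; the nearest lay 350843 and 88325 bases away.

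Related gene groups were looked up for comparison, each beside the share of non-receptor genes of the same lengths. The odorant-binding protein and pickpocket genes were taken by symbol, so a part in chemosensation is not shown for each of them. Of the odorant-binding protein genes (Obp), 2 of 6 X-linked members had a peak (wt) and 0 of 6 (M1[wt]), against shares of 27.7% and 22.6%. The former were Obp19c and Obp19d, which shared 1 peak with a −log10 p of 8.37. On the autosomes 2 of 45 (Obp28a and Obp83g, wt) and 1 of 45 (Obp28a, M1[wt]) had one, or 4.44% and 2.22%, against 11.7% and 13.1%. Of the pickpocket channel genes, 0 of 3 X-linked members had a peak, against 61.4% and 60.2%. On the autosomes 3 (wt) and 4 (M1[wt]) of 26 had one, or 11.5% and 15.4%, against 22.5% and 25.0%, the strongest at ppk29 (111 and 133). The 4 accessory genes Orco, Snmp1, Snmp2 and lush had none in either list, against 29.1% and 31.5%, with Orco 35432 and 35440 bases from a summit. As a comparison family from outside the senses, the cuticle protein genes of the Cpr type had no peak in either list. That was 0 of 4 X-linked members, against 37.3% and 33.1%, and 0 of 66 autosomal members, against 16.1% and 17.9%. A low count for length was also seen in a family with no part in chemosensation.

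A selection of 11 transcription factor genes that control receptor choice or sensory neuron fate was looked up, not the whole class. The one X-linked gene of the selection was acj6, which encodes a POU-domain factor of olfactory neurons. It held a summit in both lists (−log10 p of 52.5 and 19.7). Of X-linked non-receptor genes in its length class, 65.5% (wt) and 71.4% (M1[wt]) had a peak. On the autosomes chn, dac, Eip93F, pdm3 and ss, 5 of 10, had a peak in each list, with chn strongest at 353 and 469. These genes are long, with a median of 26888.5 bases, and at their lengths 35.87% and 36.02% of autosomal non-receptor genes had a peak. No test of that difference was made. The proneural genes amos and ato had none, nor had onecut, rn and sv.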

How the data were processed

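Peak lists of MSL2 ChIP-seq from wt males and M1[wt] males were used, 2 of the 19 samples of the series; the others were not analysed here. Groups came from the sample titles. Tools listed in the submitters' processing notes are MACS2, Bowtie2, cutadapt, deepTools and Picard, and the builds listed are dm6 and dm3, without roles; the sources used here give no caller settings. The lists the authors deposited have 20 columns in the layout of the irreproducible discovery rate (IDR) method, which is not named in the labels. The files as deposited by the authors hold the −log10 p of the peak and of 2 replicate calls, the −log10 of both IDR values, local and global (global values are 0.05 or below in every row), and a score scaled from it. Fold enrichment and q columns hold a placeholder. What the replicate calls are is not stated, and the reads behind each peak are unknown.

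Summits were the interval start plus the summit offset, printed 1-based in dm6; the labels do not tie a build to the lists, and in dm6 the strongest peak of both lists falls in lncRNA:roX1. Gene positions and symbols came from the RefSeq table of the Release 6 assembly, which gives no strand or exons. It held 185 matching symbols, of which 6 pseudogenes were left out, and 1 row on an unlocalised scaffold was dropped. The 11 wt and 9 M1[wt] peaks outside the main chromosomes were left out. All protein-coding genes, receptor genes included, were divided into 10 length classes of near-equal gene number within the X or the autosomes. The shares of the other genes in each class were averaged with the receptor genes' class weights. Shares at the lengths of host, neighbour and related genes were made the same way over all non-receptor genes, those genes included, after the data had been seen. Owners were searched among all genes of the table. The gene named fer1 in the planned list matched no single gene and was left out. Planned sequence searches were not made.

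Named genes are all X-linked members, all autosomal members with a peak, the genes at those peaks, the members nearest to a summit without a peak, up to 3 for each chromosome class, and the accessory and regulator genes with a peak. Other genes (hosts, well-known autosomal members, Obp and pickpocket genes, regulators without a peak) were named after their values were seen. Members and lists were chosen with earlier results of these data known. The assignment of summits and the length weighting were tested on simulated data. Alternatives changed the distance, the summit, the peak threshold, the length classes, the members and the genes that can own a summit. Python 3.11.15, pandas 2.3.3, NumPy 2.4.6, SciPy 1.17.1 and matplotlib 3.10.9 were used.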

Additional observations from a re-analysis of the deposited data

How the results depend on the processing

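The receptor genes' share stayed below that of length-weighted other genes in all 32 comparisons of the distance, interval and peak-threshold settings, the reported one included. Of 48 alternatives, 38 left the receptor gene values within their interval or within 1.5 times the count, but the interval around 3 of 25 genes is wide. A global IDR of 0.01 or less left 1 of 25 X-linked members in both lists (4.00%, against 49.5% and 46.3% of length-weighted other genes). Another setting left out members that overlap a non-receptor protein-coding gene. Then 3 of 119 autosomal members had a peak in wt males (2.52%) and 5 of 119 in M1[wt] males (4.20%). On the X it was 3 of 21 (14.3%, wt) and 2 of 21 (9.52%, M1[wt]). Peaks at or above a −log10 p of 50 left 0% of X-linked members in both lists, against 18.7% and 22.0%, and 0.649% (wt) and 1.95% (M1[wt]) of autosomal members, against 6.08% and 9.30%. A global IDR of 0.001 or less, chosen after seeing the data, left 0% of X-linked members, against 33.5% and 31.7%, and 1.30% (wt) and 1.95% (M1[wt]) of autosomal members, against 11.9% and 13.7%. With the summit inside the gene the autosomal share was 0% in both lists, and within 500 bases it was 1.30% in wt males. With the summit of the first replicate call, chosen after seeing the data, 1 of 8 M1[wt] peaks, in place of 2 of 9, lay in or nearest to the receptor gene. These alternatives keep fewer peaks or a smaller distance, or move the summit. Without Or19a and Or19b, a setting also added later, the X share was 13.0% in each list. Of 36 alternatives for the length-weighted share, 28 moved it beyond its interval; using 20 length classes or genes of like length did not. Leaving out near-identical members by protein identity was not run. No paired analysis was possible because each line has 1 sample and no test was made. Each line has 1 list, so no replicate could be left out, and the lists name peaks that passed a limit, so a gene without a peak is not shown to lack MSL2.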
